A study of Caenorhabditis elegans with 4 samples.

Results

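The 234 regions described here are the peaks on chromosome III in the combined list of CEH-16::GFP binding regions, out of 1848 combined peaks on all 6 chromosomes. They were chosen by chromosome name alone, so no peak height or q-value entered the choice. The data come from chromatin immunoprecipitation and sequencing (ChIP-seq) of the worm Caenorhabditis elegans, as hermaphrodites of the L2 larval stage, in 2 immunoprecipitated libraries (ChIP) and 2 Input libraries of chromatin that was not pulled down. All animals were of strain OP82, grown at 20 °C, in which an unc119(ed3) mutant background carries the insertion wgIs82 (ceh-16::TY1 EGFP FLAG together with unc119). The insertion was made by biolistic transformation and was not outcrossed, and the genotype lists no mutation of the animals' own ceh-16. The labels describe the expression of the fusion protein as that of CEH-16 but give no copy number, and whether the 2 replicates of a group were grown separately is not stated, so their spread may be technical. Both sets of libraries share this genotype, stage and temperature, and the Input libraries were not analysed here. Each peak has a start and an end in the WormBase WS220 build and a q-value from the peak caller PeakSeq, where a smaller q-value means a stronger call. The number of reads behind the q-values is unknown.

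CEH-16 is the worm's Engrailed homeodomain protein, a transcription factor that binds DNA directly. Its best known site of action is the seam, a row of epidermal cells on each side of the body that divide at each larval stage and make part of the cuticle, and in the embryo it keeps these cells from fusing with the surrounding epidermis. Chromosome III is an autosome, and worm autosomes have a gene-dense centre with little recombination and 2 arms that recombine more often. The genes ceh-16 and unc-119, both copied in the transgene, lie on chromosome III in the gene table of assembly WBcel235. That table describes another build than the peak lists, so neither gene was placed among the peaks, no peak was given a gene, and no sequence is printed.

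Chromosome III was among the chromosomes with fewer called regions. Its 234 peaks were 12.7% of the combined list (95% exact binomial interval 11.2 to 14.3%), and the stretch from its first to its last peak, 13.6 Mb, was 13.8% of the summed stretches of all chromosomes. Intervals here cover counting error alone and treat neighbouring peaks as independent, which they may not be. Replicate 1 had 125 peaks on III, 12.3% of its list (10.3 to 14.5%), and replicate 2 had 85, 10.8% of its list (8.74 to 13.2%). The length share lay inside the intervals of the combined and replicate 1 lists and above the interval of replicate 2. In number of peaks III ranked 5 of 6 in all 3 lists, above I only.

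Per megabase III was near the middle of the order in the longer lists. It held 17.2 combined peaks per Mb, between V (16.4) and IV (19.7), with a range over chromosomes from 12.2 on I to 24.5 on X. The density was 9.17 peaks per Mb in replicate 1, ranking 4 of 6, and 6.24 in replicate 2, ranking 5 of 6. Chromosome III had 0.68 replicate 2 peaks for each replicate 1 peak, the lowest ratio of the 6 chromosomes, against 0.772 over all of them. The next lowest was 0.714 on IV and the highest 0.847 on V. This ratio was not tested, and the depths of the libraries are unknown.

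Along chromosome III the centre was more densely called than either arm in all 3 lists. With the left arm ending at 3.722 Mb and the right arm starting at 10.34 Mb, the centre held 132 combined peaks (19.9 per Mb), the left arm 48 (13.2 per Mb) and the right arm 54 (16 per Mb). In replicate 1 the densities of left arm, centre and right arm were 5.79, 10.6 and 10.0 peaks per Mb. In replicate 2 they were 4.14, 7.40 and 6.20 peaks per Mb. The left arm was thus the sparsest part in each list, while the right arm came close to the centre in replicate 1.

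The centre held 56.4% of the combined peaks on III (49.8 to 62.9%) on 48.6% of the length, so the interval lay just above the length share. Replicate 1 had 56.0% there (46.8 to 64.9%) and replicate 2 57.6% (46.4 to 68.3%), and both of these intervals include the length share. When peaks up to 5 kb apart were joined and counted once, 92 of 168 groups lay in the centre, or 54.8% (46.9 to 62.4%), an interval that also includes it. The higher density in the centre was therefore seen in every list and was larger than counting error only for single peaks of the combined list.

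The contrast between centre and arms on III was intermediate among the chromosomes. The combined density in the centre was 1.37 times that of both arms together, and this ratio was 1.35 in replicate 1 and 1.44 in replicate 2. At the same fractions of their own lengths, the other chromosomes had combined ratios from 1.04 on X to 2.33 on V. Chromosomes I (1.29) and IV (1.28) were the closest below III, and II (1.67) the closest above. Only for III are the boundaries those of the chromosome itself, so the ratios of the other chromosomes rest on borrowed fractions.

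**Figure D1:**
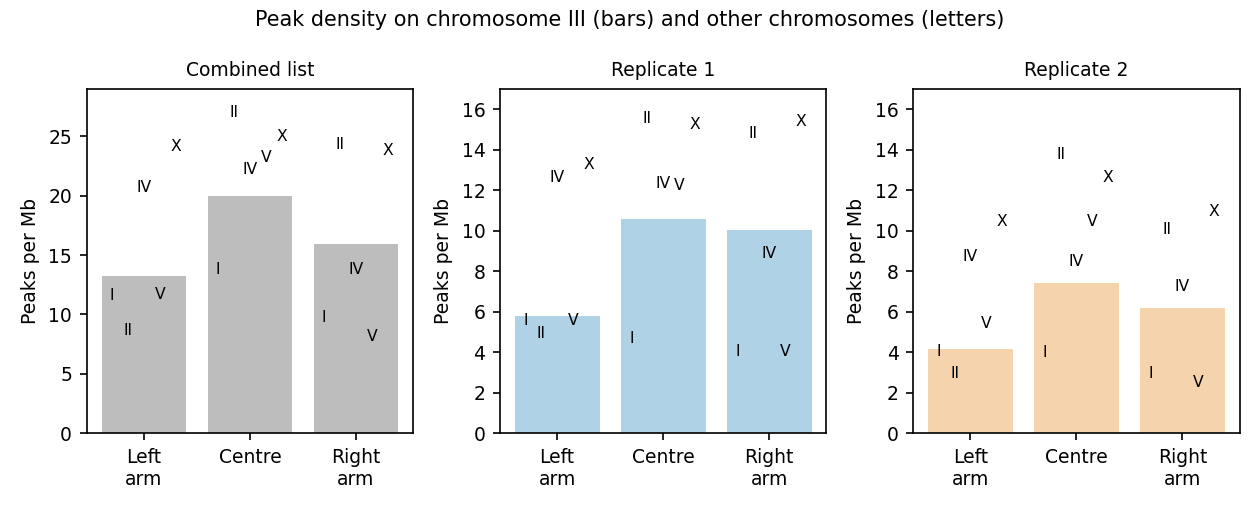
Peaks per Mb in the left arm, centre and right arm of chromosome III (bars) and of the other chromosomes at the same fractions of their length (letters, placed at their density), in the combined list, replicate 1 and replicate 2. The centre bar of III is the highest in each list, at 19.9, 10.6 and 7.40 peaks per Mb; the replicate panels share an axis range that differs from that of the combined panel.

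Over 1 Mb windows the combined peaks on III ranged from 10 to 29 per window with a median of 16. The fullest window was 7 to 8 Mb with 29 peaks, followed by 5 to 6 Mb with 25 and 8 to 9 Mb with 24, all in the centre. The sparsest was 6 to 7 Mb, with 10 peaks, between 2 of these full windows. The fullest window in the combined list was not the fullest in a replicate. Replicate 1 had 11 peaks at 7 to 8 Mb and replicate 2 had 9, and 15 of the 29 combined peaks there met neither replicate. The share that met neither was 40.6% over III and 36.9% over all chromosomes. Replicate 1 was fullest at 8 to 9 Mb (16 peaks) and replicate 2 at 5 to 6 Mb (11 peaks).

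The window at 8 to 9 Mb is where the replicates differed most. It held 16 peaks in replicate 1 and 5 in replicate 2, a difference of 11, the largest of the 102 windows of 1 Mb with a replicate peak over all chromosomes. This window was singled out after its values were seen, and the difference was not tested. It contains the widest region of the list, and without the peaks of that region the counts were 14 and 4. Of its 24 combined peaks, 5 met both replicates, 10 met replicate 1 only, none met replicate 2 only (0) and 9 met neither. Over all chromosomes these classes held 30.0%, 21.8%, 11.3% and 36.9% of the combined peaks, in the same order. The 10 that met replicate 1 only lay between 8163840 and 8904348 and had combined q-values from 1.97e-08 to 0.00343. Of the 14 windows on III, replicate 1 had more peaks in 12 and replicate 2 in 1, at 10 to 11 Mb (8 against 10 peaks), and 3 to 4 Mb had 6 in each. Replicate 1 has the longer list on every chromosome, with 1017 peaks in all against 785, and also led in most windows of the other chromosomes.

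Apart from 1 region, peaks on III were narrow. The median width was 408 bp in the combined list (quartiles 311 and 568 bp), 422 bp in replicate 1 and 377 bp in replicate 2. The other chromosomes had combined medians from 377 bp on V to 447 bp on X, so III ranked 4 of 6. The narrowest combined peak on III was 90 bp, and 3 were under 200 bp. Of the 234 peaks, 17 were over 1000 bp, and 16 of these were between 1000 and 2027 bp.

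The remaining one, the only combined peak of any chromosome over 10 kb, was 16363 bp wide. Leaving it out left the median at 408 bp, and the mean width on III was 497 bp (SD 286, n = 233 peaks) in place of 564 bp (SD 1076, n = 234). The covered length of III was 132067 bp with it and 115704 bp without, so this single region held 12.4% of all combined peak bases on the chromosome. Its peaks held 13.4% of the bases called on III in replicate 1 and 17.8% in replicate 2. Without it, the mean width on III lay between V (482 bp) and II (524 bp), and 6.87% of peaks were over 1000 bp, against 4.12% on IV to 11.5% on I.

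The wide region spanned 8610415 to 8626777 in the centre of III and was the second strongest peak of the whole combined list, with a q-value of 8.70e-59. It was 8.07 times as wide as the next widest peak on III. In replicate 1 it was called as a pair of peaks of 7563 and 1538 bp, with q-values of 1.97e-82 and 4.99e-28. The gap between them was 201 bp, the shortest between any neighbouring peaks in the replicate 1 list. The shortest replicate 1 gaps on II (214 bp) and V (217 bp) were close to it. In replicate 2 it was called as 1 peak of 8611 bp with a q-value of 2.94e-98. The next smallest q-values of these lists were 1.60e-43 in replicate 1 and 4.69e-34 in replicate 2, so the region stood far ahead in both.

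Replicates differed in where the region began. Counted from the centre of the combined peak, replicate 1 was called from 2260 bp to the left to 7041 bp to the right, and replicate 2 from 440 bp to the left to 8170 bp to the right. Both replicates called 7281 bp of it in common, 44.5% of the combined width. Neither called 5932 bp of it (36.3%), and 5921 bp of these formed the left end. The right end of the combined peak lay 11 bp beyond the end of replicate 2. The next combined peak to the left was 30741 bp away, which is the median gap between neighbouring combined peaks on III, and the next to the right was 114577 bp away. The transgene adds copies of ceh-16 and unc-119, and whether the region holds DNA of the transgene was not tested.

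**Figure D2:**
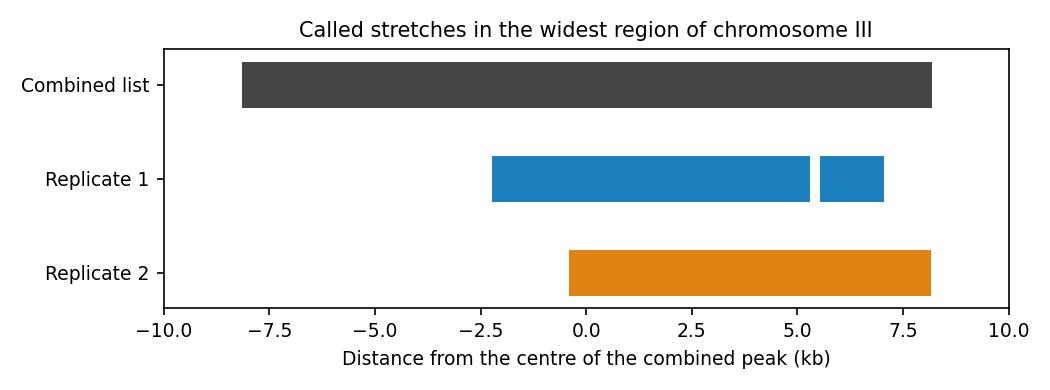
Called stretches of the widest region on chromosome III in the combined list, replicate 1 and replicate 2, by distance in kb from the centre of the combined peak. The replicate calls cover the middle and right of the 16363 bp combined peak, and its leftmost 5921 bp have no call in either replicate.

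After the wide region, the strongest calls on III were 500 to 2027 bp wide, all above the median width of 408 bp, and were called in both replicates. All of the 10 combined peaks with the smallest q-values on III met both replicates, and 8 of them lay in the centre. Meeting both was usual for strong peaks. Among combined peaks with q-values up to 3.51e-07, 89.1% on III and 92.1% on the other chromosomes met both. The centre held 56.4% of all combined peaks on III, and whether the 10 strongest differ from that share was not tested. Ranks given here are positions by q-value in the whole list concerned. For a region that met several peaks of a replicate, the values are of the one sharing most bases with it.

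The second strongest on III was 4281803 to 4282731 (929 bp), with q-values of 1.50e-30 in the combined list (rank 19), 8.35e-15 in replicate 1 (rank 26) and 3.64e-16 in replicate 2 (rank 17). The third was 6364007 to 6364882 (876 bp), where the combined q-value was 4.76e-23 (rank 44), with 1.47e-10 in replicate 1 (rank 75) and 3.72e-12 in replicate 2 (rank 34). Both replicates thus placed these regions among their 75 strongest peaks. The fourth was 7644965 to 7645464 (500 bp), the narrowest of the 10, where the combined q-value was 3.15e-21, with 3.77e-10 in replicate 1 and 8.88e-11 in replicate 2. The fifth was 3866878 to 3868097 (1220 bp), where the combined q-value was 4.71e-20, with 1.77e-12 in replicate 1 and 1.53e-12 in replicate 2. The sixth was 3796949 to 3797814 (866 bp), with 2.81e-19, 8.05e-09 and 9.47e-11 in the same order. The fifth and the sixth lie just inside the centre, near the boundary of the left arm.

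The other 4 had a smaller q-value and a better rank in replicate 1 or were split there. At 9765109 to 9765965 (857 bp) the combined q-value was 9.84e-18, with 9.04e-11 in replicate 1 (rank 71) and 7.57e-07 in replicate 2 (rank 153). At 6358643 to 6360669, the second widest peak on III (2027 bp), the combined q-value was 2.25e-17, with 2.90e-12 in replicate 1 (rank 45) and 5.79e-05 in replicate 2 (rank 270). At 1923181 to 1923937 in the left arm (757 bp) it was 3.98e-17, 8.02e-14 (rank 32) and 0.000824 (rank 439) in the same order. The last of these, a rank of 439, was the lowest that any of the 10 had in replicate 2.

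The tenth region, 13070433 to 13072379 in the right arm (1947 bp), was called as 3 separate peaks in replicate 1. Their q-values were 2.99e-05, 0.00167 and 0.00481, from left to right, while replicate 2 had a single peak of 1016 bp with 0.000100. The combined q-value was 4.08e-17, so this region was at rank 100 in the combined list although none of its replicate peaks ranked better than 318. Over III as a whole, 4 combined peaks met several peaks of replicate 1 and none (0) met several of replicate 2. These were the wide region, the right arm region just named, 1418700 to 1420320 (1621 bp, left arm) and 7299419 to 7300554 (1136 bp, centre). The region at 1418700 met 2 peaks of replicate 1, with q-values of 2.05e-05 and 0.00577, and a replicate 2 peak with 0.00946 (rank 781 of 785). The fifth widest peak, 9700085 to 9701523 (1439 bp), met neither replicate and had a combined q-value of 0.00710.

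Peaks on III were weaker, at the median, than those of the other chromosomes in the combined list. The median combined q-value was 0.000388 on III, the largest of the 6 chromosomes, against 7.42e-05 on II, the smallest. In replicate 1 the median on III was 0.000717, also the largest but close to that of V (0.000703). In replicate 2 it was 0.000647, second to X (0.000704). Chromosome III held 1 of the 10, 3 of the 50 and 10 of the 100 strongest combined peaks (10.0%, 6% and 10.0%). The whole combined list was divided into 4 classes of 462 peaks (25% each), and from the strongest class to the weakest III held 55, 50, 59 and 70 of them. Its share was thus 11.9% (9.10 to 15.2%) in the strongest 25% and 15.2% (12.0 to 18.8%) in the weakest, with intervals that overlap. In replicate 2 the shares of the 4 classes showed no such order, at 12.8%, 8.16%, 10.7% and 11.7%.

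Fewer than 3 in 10 combined peaks on III were called in both replicates. Of the 234 peaks, 62 met both replicates by 1 bp or more, or 26.5% (21.0 to 32.6%), against 30.0% over all chromosomes. Replicate 1 only was met by 54 (23.1%, against 21.8% over all), and replicate 2 only by 23 (9.83%, against 11.3%). The largest class, 95 peaks or 40.6% (34.2 to 47.2%), met neither replicate, against 36.9% over all chromosomes. Each of these values over all chromosomes lies inside the interval of III, so no class on III differed from the list as a whole beyond counting error. In all, 116 peaks on III met replicate 1 (49.6%, against 51.8% over all) and 85 met replicate 2 (36.3%, 30.2 to 42.8%, against 41.3%).

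In the order of chromosomes by the share met in both, III (26.5%) stood between I (21.4%) and V (27.5%), and X was highest (35.5%). The interval of III includes the values of V (27.5%), IV (30.9%) and II (32.1%) as well as that of I, and lies below the 35.5% of X. The interval of X, 30.9 to 40.2%, in turn overlaps that of III, and the difference was not tested.

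**Figure D3:**
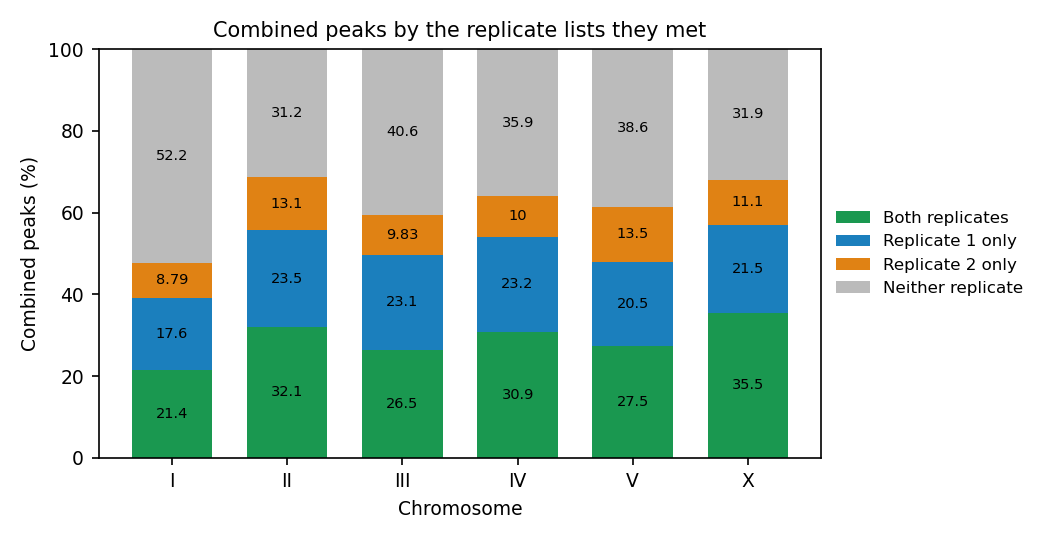
Combined peaks of each chromosome by the replicate lists they met by at least 1 bp, as percentages of that chromosome's combined peaks. On chromosome III 26.5% met both replicates and 40.6% met neither, between the values of I and those of the other chromosomes.

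At matched strength in the combined list, the peaks on III met the replicates about as often as others. In the strongest 25% of the whole combined list, 49 of the 55 peaks on III met both replicates (89.1%, 77.8 to 95.9%), against 92.1% of 407 peaks elsewhere, and none on III met neither (0, interval to 6.49%). In the second 25% class 12 of 50 on III met both (24.0%, 13.1 to 38.2%), against 28.2% elsewhere. In the third it was 1 of 59 (1.69%), against 0.496%, and in the weakest class 0 of 70 on III and 0% elsewhere. Every one of these intervals on III includes the value elsewhere. The share met in neither on III was 0%, 8.00%, 50.8% and 87.1% in the 4 classes, from strongest to weakest. Elsewhere it was much the same, at 0%, 8.50%, 54.1% and 84.9%. How the combined list was made is not stated, so its q-values and the replicate calls may not be independent. The change from class to class may therefore be built in.

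Width went with meeting the replicates in the same way on III. Among the widest 25% of peaks on III, 28 of 59 met both replicates (47.5%) and 12 met neither (20.3%). The widest 25% on the other chromosomes had 58.4% and 14.4%. Among the narrowest 25% on III, 1 of 58 met both (1.72%) and 40 met neither (69.0%), against 3.47% and 64.5% elsewhere. The wide peaks on III were also the stronger ones, so width and strength were not separated. Their median q-value was 4.83e-07 in the widest 25% and 0.00343 in the narrowest. Whether a replicate calls a peak depends on its own q-value limit of 0.01, so these values are descriptions.

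**Figure D4:**
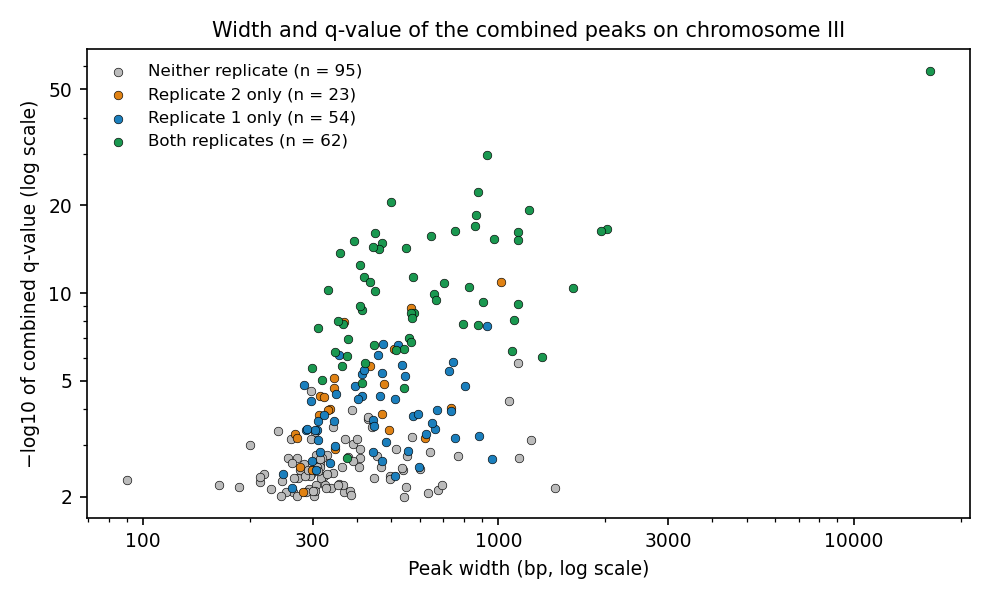
Width in bp and −log10 of the combined q-value of the 234 combined peaks on chromosome III, both on log axes, coloured by the replicate lists each peak met. Peaks met in both replicates lie mostly in the upper part (median q-value 2.36e-10) and peaks met in neither mostly near the lower edge (median 0.00343). These classes overlap, with q-values up to 0.00192 in the first and down to 1.81e-06 in the second. The 16363 bp region stands alone at the upper right.

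Some fairly strong regions on III were called in a single replicate. The strongest of those that met replicate 2 only was 11090078 to 11091096 in the right arm (1019 bp), whose combined q-value was 1.20e-11 (rank 233), with 5.05e-07 in replicate 2. Next came 7305259 to 7305826 (568 bp, combined q-value 1.28e-09) and 5678907 to 5679273 (367 bp, 1.15e-08), both in the centre. Of those that met replicate 1 only, the strongest was 8864827 to 8865756 (930 bp), whose combined q-value was 1.97e-08, with 2.61e-06 in replicate 1. It was followed by 8794613 to 8795084 (472 bp, 2.08e-07) and 13720927 to 13721448 (522 bp, 2.33e-07). The strongest replicate 2 only peak was therefore stronger in the combined list than any replicate 1 only peak, although the latter class held more peaks.

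Regions that no replicate called could also be far from the threshold. The strongest of the 95 was 349554 to 350686 in the left arm (1133 bp), with a combined q-value of 1.81e-06 (rank 572). The next were 5964026 to 5964322 (297 bp, 2.50e-05) and 8799805 to 8800875 (1071 bp, 5.28e-05), both in the centre. The first of these lies at the right edge of a gap of 254223 bp, one of the longest on the chromosome. By part of the chromosome, 24 of 48 peaks met neither replicate in the left arm (50.0%, 35.2 to 64.8%), 53 of 132 in the centre (40.2%, 31.7 to 49.0%) and 18 of 54 in the right arm (33.3%, 21.1 to 47.5%). These intervals overlap, and the shares met in both were closer, at 22.9%, 27.3% and 27.8%.

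Nearly all replicate peaks on III met a peak of the combined list. Replicate 2 had all of its 85 peaks met (100%, 95.8 to 100%), against 99.5% of that list over all chromosomes, and replicate 1 had 121 of 125 met (96.8%, 92.0 to 99.1%), against 96.1%. The 4 that met no combined peak were weak, with q-values from 0.00416 to 0.00862, and also met no replicate 2 peak. The 3 strongest of them were 9646381 to 9646660 (280 bp), 12557983 to 12558492 (510 bp) and 12389062 to 12389256 (195 bp). Each lay at least 7761 bp from the nearest combined peak.

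Between the replicates themselves, 65 of the 125 replicate 1 peaks on III met a replicate 2 peak, or 52.0% (42.9 to 61.0%), against 55.8% over all chromosomes. In the other direction it was 62 of 85, or 72.9% (62.2 to 82.0%), against 72.4%. The replicate 1 share on III was the lowest of the 6 chromosomes, the others ranging from 53.8% on IV to 60.0% on X, but all of these lie inside the interval of III. The peaks not met in the other replicate were weaker. In replicate 1 the median q-value was 0.00269 for the 60 not met and 1.51e-05 for the 65 met, and in replicate 2 it was 0.00465 for the 23 not met and 0.000158 for the 62 met. In bases, the lists shared 34135 bp on III, 50.4% of replicate 1 and 70.6% of replicate 2. Without the wide region these shares were 45.8% and 67.6%.

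Overlapping replicate peaks on III lay close together, which the way of pairing partly fixed. Only peaks that overlapped were paired, so the distances were bounded by peak width, and peaks without a partner do not enter. Over 62 one-to-one pairs of overlapping replicate peaks, starts differed by a median of 49.5 bp, ends by 51.5 bp and midpoints by 43.75 bp. Midpoints lay within 200 bp of each other in 57 pairs (91.9%), a share that ranged from 84.2% on I to 97.2% on IV. The largest difference on III, 2344 bp, was that of the wide region. Replicate 1 had the smaller q-value in 35 of the 62 pairs and the wider peak in 28. Spearman's rho of the paired q-values was 0.601 on III, within the range of the other chromosomes (0.379 on I to 0.634 on II). Pearson's r of −log10 q-values was 0.966 on III, the highest of the 6, but it rested on 1 pair. Over the 61 pairs without the wide region, r was 0.553 and rho was 0.581. Peaks share their libraries, so these coefficients are descriptions without a test.

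The combined q-value was the smallest of the 3 in nearly all regions on III met in both replicates. It was below those of both replicates in 59 of 62 regions, between them in 2 and larger than both in 1, the wide region. The lists may differ in depth, so a smaller q-value in one list does not by itself mean a stronger call. No such count is given for the other chromosomes.

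On III, peaks often lay near another peak, at much the same frequency as elsewhere. Of the 233 gaps between neighbouring combined peaks, 66 were up to 5 kb long, or 28.3% (22.6 to 34.6%), against 28.9% over all chromosomes. The shortest gap was 219 bp, and on each of the other chromosomes the shortest was also a little over 200 bp (202 to 227 bp). The median gap on III was 30741 bp, exceeded only on I (42513 bp), with the lowest median on X (19792 bp). In replicates 1 and 2 the median gap on III was 69606 and 100371 bp, again second to I.

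**Figure D5:**
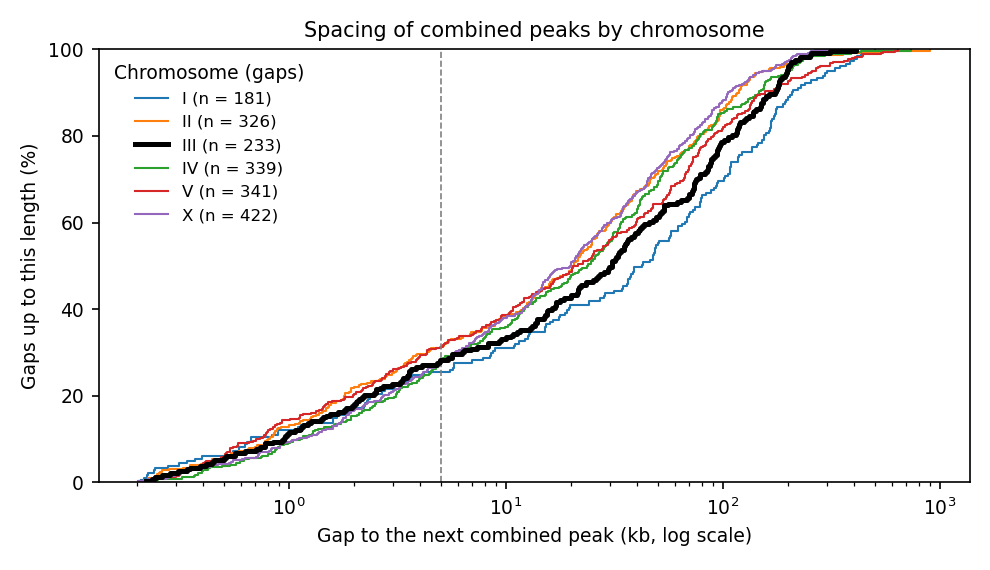
Cumulative share of gaps between neighbouring combined peaks by gap length in kb (log axis), 1 line per chromosome, with chromosome III in bold and a dashed line at 5 kb. At 5 kb III is at 28.3%, among the others (25.4% on I to 31.3% on II), and the median (30741 bp) and upper quartile (89433 bp) of its gaps lie between those of I (42513 and 117522 bp) and those of the other chromosomes.

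Joining peaks up to 5 kb apart gave 168 groups on III, of which 132 were single peaks, 20 were pairs, 8 held 3 peaks and 8 held 4 to 6. Single peaks were 56.4% of all peaks on III, against 51.7% on II to 58.2% on I. The 4 groups of 5 or 6 peaks were all in the centre, which held 54.8% of all 168 groups. These 4 groups held 22 peaks, 9.40% of those on III, against 2.65% on IV to 11.9% on II. One of 6 peaks spanned 7296017 to 7305826, where 1 peak met both replicates, 2 met replicate 2 only and 3 met neither. Its strongest member was 7299419 to 7300554 (q-value 5.52e-17). The other group of 6 spanned 7546505 to 7558935, with 2 peaks met in both, and its strongest member was 7554526 to 7555172 (1.76e-16).

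The groups of 5 differed in how many of their peaks met both replicates. The group from 4274558 to 4285102 held the second strongest region of III, at 4281803, with 3 of its 5 peaks met in both replicates and q-values up to 0.000616. The group from 8794613 to 8802357 held 1 peak met in both, at 8801388 to 8802357 (5.18e-16), 2 met in replicate 1 only and 2 in neither. Each of the 4 groups thus had at least 1 strong peak called in both replicates beside weaker ones. Peaks in groups of 2 or more met both replicates in 33 of 102 cases (32.4%, 23.4 to 42.3%), and single peaks in 29 of 132 (22.0%, 15.2 to 30.0%), with intervals that overlap. Grouped peaks had a median q-value of 9.87e-05 and single ones of 0.000803.

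The longest stretch of III without a combined peak ran from 9113145 to 9521661 (408515 bp) in the centre. The next ran from 11823571 to 12134616 (311044 bp) in the right arm and from 95330 to 349554 (254223 bp) in the left arm. None of them held a replicate peak (0 in each replicate), so these stretches were empty in all 3 lists. On the other chromosomes the longest gap ranged from 313585 bp on X to 899714 bp on II.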

How the data were processed

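Chromatin of OP82 hermaphrodites at the L2 stage was pulled down with anti-GFP antibodies, per the labels' protocols. The 3 peak lists were used, 1 for each ChIP replicate and 1 combined. Per the file headers, the authors called peaks with PeakSeq and lifted positions over to WormBase WS220, and they deposited 1 q-value for each peak, under 0.01 throughout. The liftover changed 2 combined peaks on III, moving their ends by 1 to 4 bp. The earlier build, the aligner, the read depth and how the combined list was made are not stated in the sources used here. The q-value was used only to order and describe peaks.

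Peaks on III were taken by chromosome name. Peaks met when they shared at least 1 bp. Chromosome length was the stretch between the outermost combined peaks, and arms were assigned by midpoint. The arm boundaries on other chromosomes lay at the same 26.6% and 75.2% of that stretch. Shares have exact binomial intervals (Clopper-Pearson, 95%). Peaks are not replicates of a condition, so no test was run over them, and differences between chromosomes are descriptions.

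The regions named were the 10 smallest q-values, the 5 widest, groups of 5 or more, the 3 longest gaps, the 3 strongest of each class not met in both, and the 3 strongest replicate peaks outside the combined list. Others were named after their values were seen. The members and lists were chosen with earlier results of these data known. Functions were tested on simulated data. Python 3.11.15, NumPy 2.4.6, SciPy 1.17.1 and matplotlib 3.10.9 were used.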

Additional observations from a re-analysis of the deposited data

How the results depend on the processing

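Over 8 results and 40 alternatives, 31 values stayed within the margin set for each (the 95% interval of a share, or 1 SD between the replicate lists for a width or density, or between the other chromosomes for rho), 9 moved beyond it and 0 changed sign. Only rho could change sign, and some alternatives could hardly move a value, such as the median width without the wide region. Stricter lists raised the median width on III from 408 bp to 500 bp in the stronger 50% of the list and to 463 bp at q-values under 0.001. With neighbours counted up to 2 kb in place of 5 kb, 18% of gaps on III were that short. Leaving out a replicate gave a share of III of 10.8% to 12.3% and a centre share of 56.0% to 57.6%. The median width was then 377 to 422 bp and the share of short gaps 21.4% to 23.4%. Each of these values came from the list of the replicate that was kept. In the replicate 2 list, the share of III (10.8%) and the share of short gaps (21.4%) moved beyond their margins. With 1 replicate required in place of both, 36.3% to 49.6% of combined peaks on III met it and 50.4% to 63.7% did not, by construction. The share met in both was 26.5% with 50% of the shorter peak shared and 23.1% with midpoints within 200 bp. The correlation without the pair of the wide region was added after seeing the data. No paired analysis was possible because the lists used here belong to the ChIP group alone, which leaves no value of a second group to pair with them. As the depth is unknown, list lengths of the replicates cannot be set against it.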
